A study of Arabidopsis thaliana with 11 samples.

Results

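The loci described here are 38 Arabidopsis thaliana genes that gave a strong and nearly level array signal in leaf, stem and flower. They were chosen by their deposited values: the lowest of 11 array signals was at least 1500, and the highest was at most 1.7 times the lowest. Only probe sets paired with exactly 1 gene were considered, and of those only genes whose symbol is no more than the locus code. The 38 loci came from 296 such probe sets that were strong enough, 11933 of that kind, 13513 probe sets with exactly 1 gene and 22746 probe sets in all, controls left out. Because all 11 arrays entered the choice, evenness is a description here. Calls and outlier flags for the loci are listed below, but nothing is concluded from them.

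RNA came from wild-type Columbia-0 plants without transgene or treatment. The leaf samples (3 arrays) were expanding leaves taken 15 days after germination. The stem samples (4 arrays) were the top 2 inches of growing stems, stripped of siliques and pedicels, and the flower samples (4 arrays) were whole flowers, both taken at 29 days. Organ therefore goes with age, and also with RNA preparation, since RNA of stem and flower, but not of leaf, passed a silica column after Trizol; these cannot be told apart. Each sample was hybridised to 1 Affymetrix ATH1 GeneChip, and a deposited value is a Microarray Suite signal per probe set on a linear scale with a target of 500. Plants grew in a chamber or a greenhouse, and the labels of stem replicate 4 name both. Whether replicates were separate plants or pools is not given in the labels, so spreads are those between these samples. A signal in a whole organ cannot tell fewer cells of a type from less RNA per cell, and signals of different probe sets cannot be ranked against each other.

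Housekeeping genes serve functions that every living cell needs: respiration in mitochondria, insertion and glycosylation of proteins at the endoplasmic reticulum (ER), protein breakdown by the proteasome, splicing and translation. In plants, mitochondrial complex I takes electrons from NADH and passes them on to the chain that ends in ATP synthesis, in green and in non-green organs alike. Genes of such functions are often used as references for transcript levels, because a reference has to stay level while other genes change.

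The organs carried their labelled markers. All 4 measured leaf markers were highest in leaf, by 1.38 to 1.71 times the next organ, all 3 stem markers of the secondary wall were highest in stem, by 6.66 to 100.5 times, and all 5 flower markers were highest in flower, by 5.27 to 156.8 times. The median signal of an array ran from 192.1 to 251.2 and was higher in every flower array than in any other. Stem replicate 3, a greenhouse sample, stood apart for these loci: without it the same rule chose 65 loci in place of 38. Of the loci it removed, 17 were too high and 8 too low in that array. Leaving out any other single array gave between 40 and 47 loci.

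Neither the probe table nor the RefSeq table used here states a function, so roles are given as background knowledge. A role was given to 32 of the 38 loci and none to the other 6. The largest group was mitochondrial, with 11 loci, of which 7 belong to the respiratory chain and its ATP synthase. A further 6 act at the ER membrane, 4 in protein breakdown, 4 in RNA handling and translation, 3 in transport and 4 elsewhere. The other strong loci were not sorted into such groups. Whether any group is commoner among the level loci than among strong loci at large is therefore not known. The 38 loci lie on all 5 chromosomes, with 7, 5, 6, 8 and 12 loci on chromosomes 1 to 5. Probe sets of that naming kind at any signal numbered 3103, 1968, 2443, 1724 and 2695 on the same chromosomes.

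**Figure D1:**
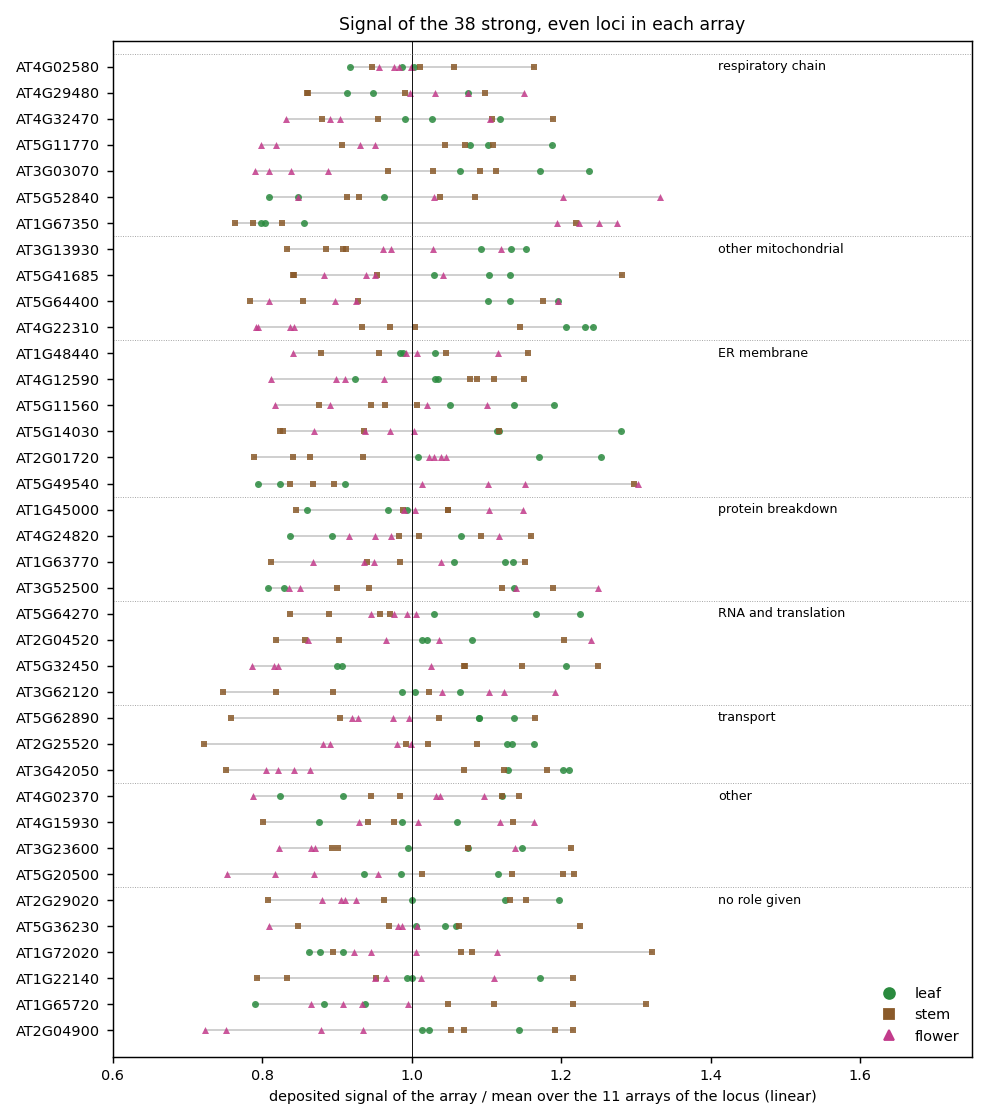
Each row is 1 of the 38 loci, grouped by role, and each point is the signal of 1 array divided by the mean of that locus over the 11 arrays (linear axis; colour and shape give the organ). The highest signal was 1.27 to 1.68 times the lowest, and for 16 of the loci the arrays of no 2 organs stand apart.

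Across the 38 loci the ratio of highest to lowest signal had a median of 1.52 and ran from 1.27 to 1.68. The coefficient of variation over the 11 arrays was 6.51% to 22.5%, with a median of 13.2%. The 258 loci that were as strong but not as level had a median ratio of 2.50, up to 32.1. Organ means differed by a median of 1.22 times (range 1.02 to 1.51) against 1.80 times in those 258 loci. The rule parted these sets by the ratio of highest to lowest, so differences in spread between them follow from the choice. Within an organ, the highest replicate exceeded the lowest by a median of 1.13 times in leaf, 1.32 times in stem and 1.19 times in flower. In the 258 uneven loci the same medians were 1.21, 1.54 and 1.28 times, so stem had the widest spread in both sets; leaf has 1 array fewer, which narrows this ratio.

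Level signals were not commoner among the strongest loci. The share of loci with a ratio of at most 1.7 was 5.65% (210 of 3714) where the lowest signal lay between 100 and 500, and 15.9% (169 of 1062) between 500 and 1500. It was 14.2% (36 of 254) between 1500 and 5000, and 4.76% (2 of 42) from 5000 up. The 2 level loci of that last class were AT1G72020, to which no role is given, and AT5G64400, a small CHCH protein of the kind found in mitochondria.

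**Figure D2:**
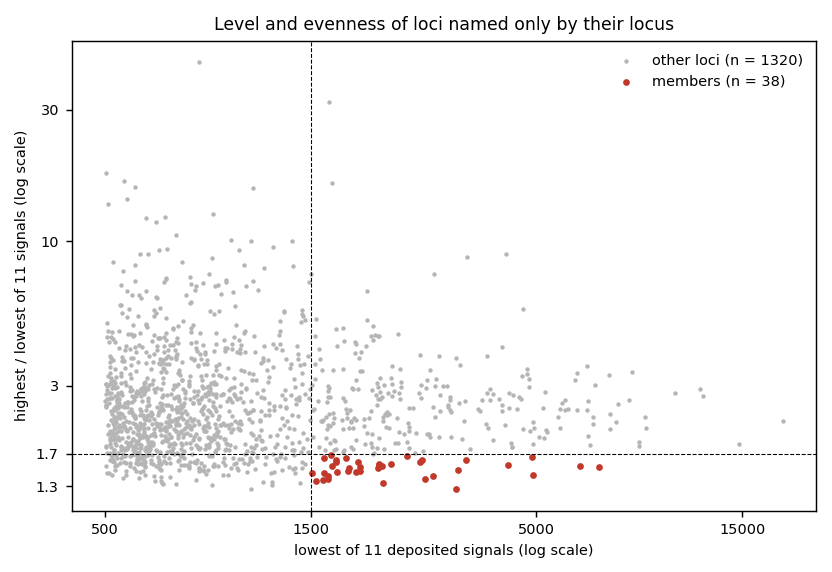
The x axis is the lowest of 11 deposited signals and the y axis the highest divided by the lowest, both on a log scale, for loci named only by their code with a lowest signal of at least 500. The 38 chosen loci (red) fill the corner set by the limits of 1500 and 1.7 (dashed lines), without a gap to the loci around them.

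The limits cut through a continuous range. Just inside the ratio limit lay AT5G49540 (1.64), AT5G52840 (1.65), AT1G65720 (1.66), AT1G67350 (1.67) and AT2G04900 (1.68), and just outside it AT5G35680 (1.71), AT3G12290 (1.71), AT3G12390 (1.71), AT3G56310 (1.73) and AT3G07480 (1.74). Just inside the signal limit lay AT4G15930 (lowest signal 1507.2), AT1G45000 (1543.1), AT1G48440 (1597.1), AT5G52840 (1609.4) and AT4G02370 (1612.3). Just outside it lay AT3G10770 (1453.3), AT3G55410 (1433.6), AT2G42310 (1426.7), AT3G03100 (1417.6) and AT2G23070 (1379.8). One of these, AT3G03100, is a complex I gene whose ratio of 1.34 was lower than that of most of the 38 loci.

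Complex I supplied 5 of the 38 loci, among them the most level of all. AT4G02580, an iron-sulphur subunit of the arm that takes electrons from NADH, had signals of 3247.7, 3549.7 and 3495.8 in leaf, 4116.5, 3350.6, 3578.6 and 3738.0 in stem, and 3455.4, 3477.0, 3535.1 and 3385.8 in flower. Its highest signal was 1.27 times its lowest. The leaf mean was 3431 ± 161 (SD, n = 3), the stem mean 3696 ± 322 (SD, n = 4) and the flower mean 3463 ± 61.7 (SD, n = 4), and all 3 organs overlapped.

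The other iron-sulphur subunit, AT5G11770, read 4428.7, 4877.9 and 4527.8 in leaf, 4552.6, 4289.4, 3725.0 and 4401.9 in stem, and 3822.0, 3902.5, 3281.4 and 3362.2 in flower. All 4 flower arrays lay below all 3 leaf arrays, at organ means of 3592 ± 315 (SD, n = 4) and 4611 ± 236 (SD, n = 3), and stem overlapped both. AT3G03070, a small subunit of the same arm, was ordered alike: 3370.4, 3193.0 and 2902.0 in leaf, 2976.1, 2803.1, 3033.5 and 2638.5 in stem, and 2419.8, 2284.1, 2204.3 and 2153.0 in flower. Its flower mean was 0.718 of its leaf mean, and the flower arrays lay below every array of both other organs. For both genes the order of flower and leaf turned when each array was scaled to its GapC signal, a glycolytic reference gene named in the labels, at ratios of 1.20 and 1.10.

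Both other complex I loci ran the opposite way. AT5G52840, an accessory subunit, read 1914.5, 1609.4 and 1685.1 in leaf, 2063.2, 1815.1, 1848.6 and 2157.0 in stem, and 2389.2, 2648.5, 1685.8 and 2048.4 in flower, a flower mean 1.26 times the leaf mean with overlapping arrays. AT1G67350, a subunit found in plant complex I, read 2623.7, 2815.1 and 2641.6 in leaf, 2590.1, 2509.7, 4008.9 and 2719.1 in stem, and 4024.3, 4189.2, 3924.6 and 4112.5 in flower. Its flower mean was 1.51 times its leaf mean, the widest organ difference among the 38 loci, and stem replicate 3 read like flower while the other 3 stem arrays read like leaf. These 2 genes and AT5G49540, described with the ER loci, were the 3 loci whose flower mean exceeded the leaf mean under each of the 4 scalings tried.

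Further along the chain, AT4G32470, a small subunit of complex III, read 5844.7, 6594.6 and 6059.7 in leaf, 6532.7, 5185.4, 7008.9 and 5632.3 in stem, and 5329.8, 6511.5, 4906.6 and 5249.6 in flower. AT4G29480, subunit g of the ATP synthase that makes ATP from the proton gradient, read 2337.1, 2751.4 and 2426.8 in leaf, 2202.2, 2205.0, 2811.3 and 2537.7 in stem, and 2553.1, 2753.9, 2943.9 and 2638.4 in flower. Their ratios of highest to lowest were 1.43 and 1.34, and in neither gene did any pair of organs stand apart. In both the highest stem array was replicate 3.

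**Figure D3:**
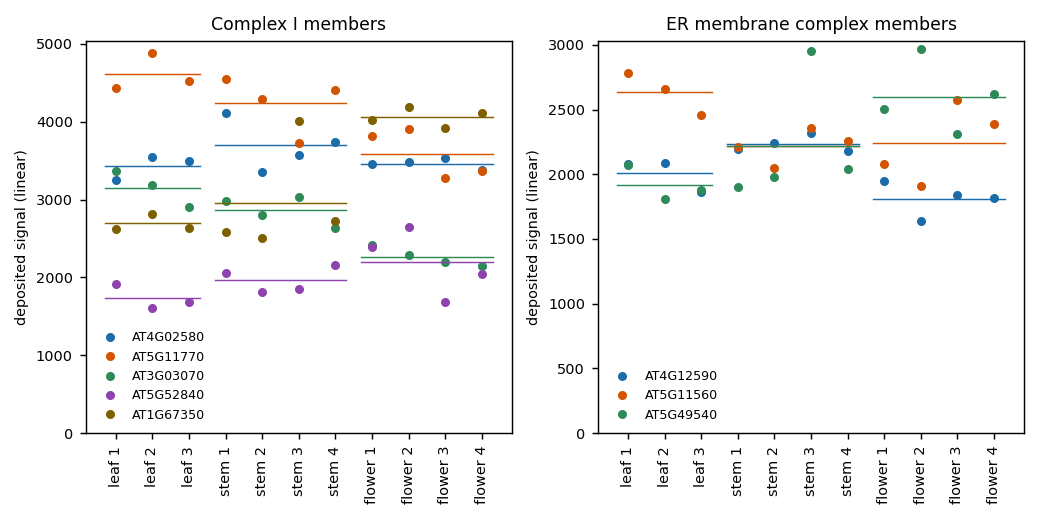
Deposited signal (linear axis from 0) of the 5 complex I loci (left) and the 3 loci of the ER membrane complex (right) in each array. Points are arrays and bars are organ means; AT1G67350 and AT5G49540 show stem replicate 3 above the other 3 stem arrays, at 4008.9 and 2951.3.

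Upstream of the respiratory chain, pyruvate has to enter the mitochondrion and be turned into acetyl-CoA. AT4G22310, of the mitochondrial pyruvate carrier family, read 3607.4, 3577.2 and 3505.5 in leaf, 2712.6, 2819.9, 3324.2 and 2916.9 in stem, and 2430.0, 2305.6, 2299.7 and 2447.1 in flower. Leaf, stem and flower arrays did not overlap in any of the 3 pairs, and the flower mean was 0.665 of the leaf mean, although with GapC scaling that ratio was 1.03. AT3G13930, the acetyltransferase (E2) of the pyruvate dehydrogenase complex, read 2230.4, 2269.9 and 2151.6 in leaf, 1744.8, 1641.7, 1795.8 and 1788.9 in stem, and 1913.7, 1892.5, 2205.8 and 2026.1 in flower. Its stem arrays lay below those of both other organs, with a stem mean 0.786 of the leaf mean. The stem mean was 1.18 times the leaf mean with GapC scaling and exceeded the flower mean with a common median.

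Both remaining mitochondrial loci encode small proteins. AT5G41685 encodes TOM7, a small part of the pore in the outer membrane, and read 2555.6, 2620.4 and 2383.6 in leaf, 1948.3, 1949.9, 2966.3 and 2206.3 in stem, and 2200.9, 2173.7, 2413.3 and 2043.9 in flower. AT5G64400 read 10117.6, 9854.8 and 10685.2 in leaf, 7636.4, 6999.7, 10510.6 and 8298.0 in stem, and 10690.0, 7227.3, 8272.3 and 8016.6 in flower. In both, stem replicate 3 was the highest stem array and the organs overlapped; in TOM7 it was also the highest of all 11 arrays.

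At the ER, 3 of the 6 loci belong to the ER membrane complex (EMC), which inserts membrane proteins. AT4G12590 (EMC3) read 2081.2, 2089.8 and 1864.8 in leaf, 2195.7, 2240.0, 2320.9 and 2176.4 in stem, and 1944.7, 1639.1, 1837.8 and 1813.4 in flower, so that stem lay above both other organs. That stem stood above flower held under all 4 scalings, and above leaf likewise. AT5G11560 (EMC1) read 2783.5, 2658.4 and 2459.8 in leaf, 2211.1, 2048.1, 2354.5 and 2256.5 in stem, and 2082.2, 1909.8, 2575.0 and 2385.2 in flower, with stem below leaf as deposited and above it (1.26) with GapC scaling. AT5G49540 (EMC6) read 2071.3, 1808.5 and 1874.9 in leaf, 1904.6, 1976.4, 2951.3 and 2038.1 in stem, and 2506.5, 2965.2, 2307.2 and 2621.4 in flower. Its flower mean was 1.36 times its leaf mean without overlap. The 3 subunits thus peaked in different organs, EMC1 in leaf, EMC3 in stem and EMC6 in flower, as deposited. With GapC scaling EMC1 was lowest in leaf, and with a common median EMC6 was highest in stem.

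The ER also glycosylates proteins as they enter. AT2G01720, ribophorin I of the oligosaccharyltransferase, read 3434.7, 4269.8 and 3989.7 in leaf, 2943.7, 2687.8, 2869.0 and 3185.2 in stem, and 3542.1, 3511.8, 3564.1 and 3487.0 in flower. All stem arrays lay below all others, and the stem mean was 0.749 of the leaf mean, or 1.14 with GapC scaling; with a common median it exceeded the flower mean. AT5G14030, the beta subunit of the translocon-associated complex, read 5820.2, 6671.5 and 5805.1 in leaf, 4880.6, 4293.5, 5821.2 and 4311.1 in stem, and 5223.0, 5060.7, 4886.9 and 4530.5 in flower; its flower arrays lay below its leaf arrays, at 0.808 of the leaf mean (1.25 with GapC scaling and 1.00 after quantile normalisation), and stem replicate 3 reached into the leaf range. AT1G48440, similar to the ER chaperone BAP31, read 1875.7, 1955.8 and 1867.8 in leaf, 1984.3, 1814.2, 1666.6 and 2193.1 in stem, and 2115.8, 1597.1, 1883.5 and 1911.4 in flower. Its organ means were within 1.02 times of each other, the closest among the 38 loci as deposited, while single arrays differed by up to 1.37 times. Its flower mean was 1.54 times its leaf mean with GapC scaling and 0.794 of it with a common median.

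The proteasome, which degrades ubiquitin-tagged proteins, was represented by 2 subunits of its regulatory particle. AT1G45000, an RPT4-type ATPase that unfolds substrates, read 1812.2, 1766.8 and 1568.5 in leaf, 1803.5, 1543.1, 1914.0 and 1911.9 in stem, and 1806.4, 2012.3, 2096.8 and 1831.5 in flower. AT4G24820 (RPN7), a lid subunit, read 3502.5, 2753.0 and 2938.1 in leaf, 3592.5, 3320.0, 3229.3 and 3809.3 in stem, and 3012.0, 3127.0, 3196.5 and 3669.0 in flower. Organs overlapped in both except that all stem arrays of AT4G24820 exceeded 2 of its 3 leaf arrays. The 2 proteases of the group, AT1G63770 (an M1-family aminopeptidase) and AT3G52500 (an aspartyl protease), ranged from 2872.7 to 4072.5 and from 2161.7 to 3344.6, ratios of 1.42 and 1.55.

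Among the loci of RNA handling and translation, AT5G64270 encodes SF3B1, a spliceosome protein that helps recognise the branch site. It read 2406.5, 2528.0 and 2125.1 in leaf, 1974.0, 1726.8, 1835.8 and 2003.5 in stem, and 1951.3, 2074.2, 2012.9 and 2049.5 in flower, with leaf above both other organs. That order reversed with GapC scaling, where stem and flower means were 1.20 and 1.34 times the leaf mean. AT3G62120, a prolyl-tRNA synthetase that charges tRNA with proline, read 2744.4, 2545.0 and 2589.6 in leaf, 2110.4, 1927.4, 2636.9 and 2305.2 in stem, and 2844.4, 3073.5, 2683.6 and 2895.4 in flower. All its flower arrays lay above its stem arrays, and its flower mean stayed above its stem mean under all 4 scalings (1.01 to 1.47 times). AT2G04520, the initiation factor eIF1A, ran from 1841.6 to 2787.7 with overlapping organs, and AT5G32450, an RNA-binding protein, from 1713.5 to 2722.8.

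Of the transport loci, AT3G42050 encodes subunit H of the vacuolar ATPase, the proton pump of the vacuole. It read 4079.9, 4377.5 and 4349.6 in leaf, 3868.4, 4271.8, 2717.0 and 4061.8 in stem, and 2967.3, 3046.5, 3122.9 and 2909.9 in flower. Flower lay below leaf without overlap, at 0.705 of the leaf mean (1.10 with GapC scaling), and stem replicate 3 was the lowest of all arrays. The same array was the lowest for AT5G62890, of the nucleobase-ascorbate transporter family (2196.5, against 2621.5 to 3376.7 elsewhere), and for AT2G25520, of the drug/metabolite transporter family (1719.0, against 2097.1 to 2768.0 elsewhere). All 3 transport loci were thus lowest in stem replicate 3, whereas 6 other loci were highest there.

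The remaining 4 loci with a role were AT5G20500, a glutaredoxin (3425.8 to 5540.3), AT4G15930, a dynein light chain (1507.2 to 2190.6), AT3G23600, an alpha/beta hydrolase (1950.3 to 2877.8), and AT4G02370, a protein of the DUF538 family (1612.3 to 2342.7). AT5G20500 was lower in all 4 flower arrays than in any stem array, an order of organ means kept under all 4 scalings. The 6 loci without a given role had ratios of 1.48 to 1.68. AT1G65720 read 5777.5, 5442.6 and 4873.8 in leaf, 6461.6, 8093.3, 7498.4 and 6843.4 in stem, and 5595.6, 5336.6, 5751.8 and 6131.3 in flower, so stem lay above both other organs, under all 4 scalings in the means. AT2G04900 read 2363.6, 2641.7 and 2342.4 in leaf, 2473.9, 2809.7, 2752.3 and 2433.4 in stem, and 1738.5, 2161.1, 2029.4 and 1672.6 in flower, with flower below both other organs; only with GapC scaling was its flower mean (1.20 times leaf) above leaf. The other 4 ran from 6295.5 to 9652.6 (AT1G72020), 2147.2 to 3247.7 (AT5G36230), 1831.1 to 2711.6 (AT2G29020) and 1675.9 to 2569.8 (AT1G22140).

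Over the 38 loci, the highest organ mean was in leaf for 20, in stem for 11 and in flower for 7, and the lowest in flower for 17, in stem for 11 and in leaf for 10. Flower and leaf arrays did not overlap for 14 loci, 3 higher and 11 lower in flower, beside 26.1% and 17% of the 17567 probe sets tested. Stem and leaf arrays did not overlap for 2 loci higher and 6 lower in stem (background 17.8% and 21.8%), and flower and stem for 3 higher and 7 lower in flower (22.4% and 12.7%). In all, 22 loci had at least 1 pair of organs apart and 16 had none, where 64% of all tested probe sets had such a pair. In the limma fit over all 11 arrays, 0 of the 38 loci had an adjusted p under 0.05 with a log2 fold change of at least 1, as the ratio limit all but fixes. The background was 18.4% for flower against leaf (9.16% higher, 9.26% lower), 18.7% for stem against leaf (9.34% and 9.32%), 18% for flower against stem (9.85% and 8.11%) and 33.6% in any of the 3; nothing is read from these counts, since the rule used the same arrays.

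The organ order of the loci depended on how the arrays were brought to 1 scale. As deposited, the flower mean was above the leaf mean in 13 loci and below in 25, with a median ratio of 0.902. After quantile normalisation, which gives all arrays 1 distribution, it was above in 21 and below in 17 (median 1.03). With arrays set to a common median it was above in 3 and below in 35 (0.725), and with GapC set to 8500 it was above in all 38 (1.40). GapC itself, read by 1 probe set, gave 10659.3, 14103 and 13195.4 in leaf, 8752.7, 7505.7, 7923.9 and 9116.4 in stem, and 9474.8, 9273.1, 7932.8 and 6316.2 in flower, so every leaf array exceeded every stem and flower array. In GAPC2, read by another probe set, stem and leaf arrays overlapped, with a stem mean 0.919 of the leaf mean. Its flower arrays lay below those of both other organs. For stem over leaf the medians were 0.962 as deposited, 0.943 after quantile normalisation, 0.977 with a common median and 1.45 with GapC.

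Some orders held throughout. Under all 4 scalings the flower mean was above the leaf mean in 3 loci and below it in 0. The stem mean was above the leaf mean in 14 and below it in 0. With GapC scaling both flower and stem means were above the leaf mean in all 38 loci, so that scaling alone fixed these counts of 0. The flower mean was below the stem mean in 10 and above it in 2. The limits of 1500 and 1.7 were met again by 29 of the 38 loci after quantile normalisation, by 14 with a common median and by 3 with GapC scaling (AT5G11770, AT5G14030 and AT4G22310). Both quantile normalisation and a common median kept 9: AT4G02580, AT4G29480, AT3G13930, AT4G24820, AT5G64270, AT1G22140, AT5G62890, AT2G01720 and AT2G25520. No locus met the limits under all 4 scalings.

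**Figure D4:**
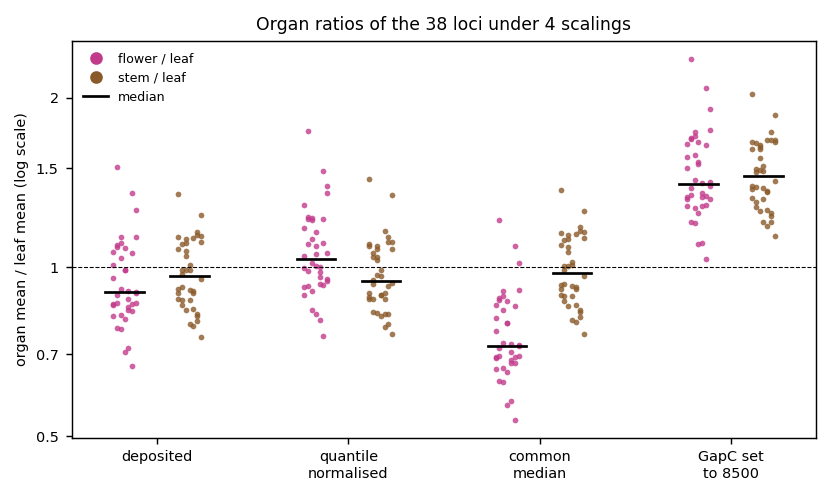
Flower over leaf and stem over leaf ratios of organ means (log axis) for the 38 loci under 4 scalings; each point is a locus and the black bar the median. The median of flower over leaf lies at 0.902 as deposited, 1.03 after quantile normalisation, 0.725 with a common median and 1.40 with GapC set to 8500.

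The rule was also applied with an array or a whole organ left out. The loci that met the limits once the arrays were put back were always the same 38. Each share below therefore restates how many loci the smaller set of arrays chose, and is not a separate test of evenness. Leaving out an organ drops several arrays at once, so its share cannot be set against those of single arrays. When the rule was applied to 10 arrays, the array left out kept the chosen loci within the limits for 58.5% (stem replicate 3) to 95% (flower replicate 1). When an organ was left out, 87 loci were level in stem and flower and 43.7% of them also met the limits with leaf, and 85 were level in leaf and stem, of which 44.7% met them with flower. Leaf and flower alone chose 198 loci, of which 19.2% met the limits with stem; the extreme was AT2G33850, whose mean stem signal was 0.00886 of its mean elsewhere. Between greenhouse and chamber flowers, the only organ with 2 arrays from each, the ratio of means had a median of 1.00 over the 38 loci and ran from 0.741 (AT5G52840) to 1.24 (AT5G11560).

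Of the 38 loci, 18 belong to 9 complexes and pathways whose other genes were looked up, 153 loci in all, of which 72 had a probe set of their own. The 54 others had a median ratio of highest to lowest of 2.08. Of these, 24 were as strong as the 38 loci, and 10 had a ratio of at most 1.7 but were weaker or had a symbol of their own. The rule had taken the strong level loci out of the others, so their higher ratio follows in part from the choice. Only 1 of the 54 was called in any contrast by limma with Benjamini-Hochberg adjustment and a log2 fold change of at least 1 (background 33.6%, and 41.7% of the probe sets with a mean signal of at least 500, a level that 51 of the 54 reached). With GapC scaling, which raised the calls over all probe sets too, 15 of the 54 were called. Smaller differences were common: 27 of the 54 (50%) had an adjusted p under 0.05 at any fold in some contrast, where 55.5% of all tested probe sets did. Apart from the 1 called gene, every fitted difference in these complexes was under 1 on the log2 scale, and whether that is particular to them was not tested.

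**Figure D5:**
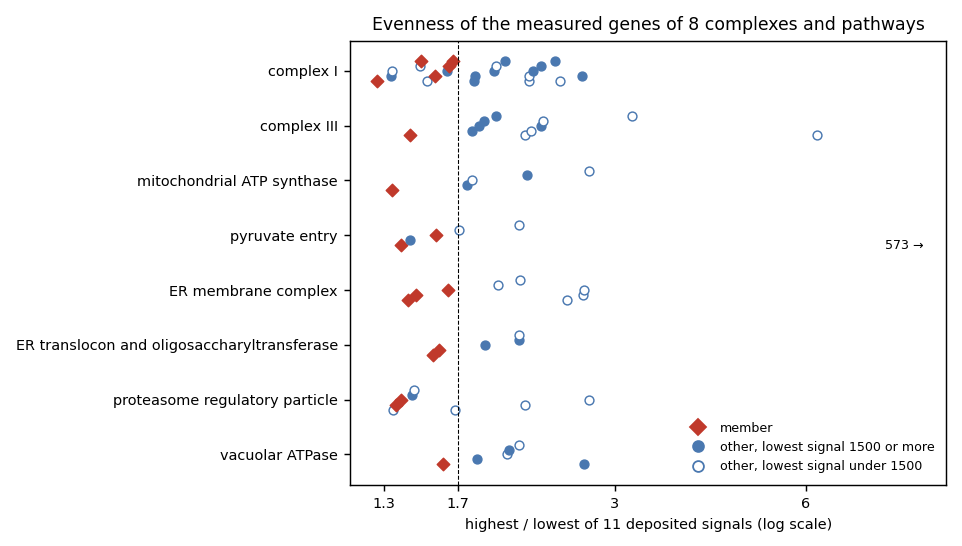
Ratio of highest to lowest signal over the 11 arrays (log axis) for each measured gene of 8 complexes and pathways. Red diamonds are the chosen loci, filled circles other genes with a lowest signal of at least 1500 and open circles weaker ones. The dashed line is 1.7, the limit used to choose the diamonds, and the arrow marks a ratio beyond the axis (573). In each group except the proteasome most other genes lie to the right of the line, in part because of that choice.

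The 1 called gene was AT4G14695, like AT4G22310 of the pyruvate carrier family. It read 6, 9.2 and 2.1 in leaf, far below the filter of 100, 202.2, 132, 100.7 and 120.6 in stem, and 1203.8, 772, 1060.6 and 712.6 in flower, and no 2 organs overlapped. On the log2(value + 32) scale, which understates the change of weak signals, the difference was 4.61 ± 0.26 (SE) for flower against leaf (limma adjusted p = 2.75e-08) and 2.39 ± 0.24 (SE) for flower against stem (limma adjusted p = 5.46e-06). Its order, flower above stem above leaf, was the reverse of that of AT4G22310 as deposited; with GapC scaling leaf was lowest in AT4G22310 too, with a stem mean 1.25 times the leaf mean. In the same pathway AT1G54220, a further E2 gene of pyruvate dehydrogenase, read 466.6, 526 and 597.1 in leaf and 286.5, 326.1, 309.6 and 335.4 in flower, a log2 difference of -0.90 ± 0.18 (SE; limma adjusted p = 0.00132).

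Complex I had 17 measured genes besides the 5 level loci, with a median ratio of 1.95 (1.33 to 2.67). At any fold, 7 of the 17 were higher in flower than in leaf and 0 lower (background 15.8% and 16.1%), and 6 were higher in stem than in leaf and 0 lower (15.9% and 18.5%). With GapC scaling 14 were higher in flower and 11 in stem, and 0 lower in either. That scaling raised all probe sets alike, to a median log2 difference of 0.695 for flower against leaf and 0.463 for stem against leaf. The GapC counts therefore include that general shift, and whether they are particular to complex I was not tested. AT1G76200, a small subunit, read 3503.2, 3421.4 and 3153.3 in leaf, 4941.1, 4776, 8414 and 5520.1 in stem, and 4883.8, 4823.8, 5438.6 and 5364.9 in flower, a log2 difference between flower and leaf of 0.84 ± 0.17 (SE; limma adjusted p = 0.00149). AT5G18800, another small subunit, read 1015, 868.3 and 732.6 in leaf, 1240.4, 1377.4, 1478.7 and 1522.4 in stem, and 1558.5, 1349.1, 1634.5 and 1799.6 in flower (0.89 ± 0.16, SE; limma adjusted p = 7.05e-04). The 5 of 17 with a ratio of at most 1.7 were FRO1 (1.33), AT3G03100 (1.34), AT2G33220 (1.48), AT3G06310 (1.52) and OEP16-3 (1.63). Stem replicate 3 was the highest array for 7 of the 17; without it 9 were higher in flower than in leaf and 0 lower, and 5 were higher and 1 lower in stem than in leaf.

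The other complexes differed between organs in various directions. In the vacuolar ATPase, whose level locus AT3G42050 was lowest in flower, 3 of 5 other genes were higher in stem than in leaf (background 15.9%). Of the same 5 genes, 3 were lower in flower than in stem (background 17.3%). The former count was 0 without leaf replicate 2 and 1 without leaf replicate 1 or 3, while the latter was 3 or 4 with any array left out. One of them, AT3G58730 (subunit D), read 3463.8, 3698.8 and 3727.1 in leaf, 5068.4, 4397.1, 5832.5 and 4304.1 in stem, and 2336, 2655.4, 2170.1 and 2318 in flower, with a log2 difference of -0.85 ± 0.12 (SE; limma adjusted p = 1.14e-04) between flower and stem. All 3 other genes of the ER translocon and oligosaccharyltransferase were lower in stem than in flower (background 18.1%), though only 1 of 3 with GapC scaling or with trimmed mean scaling alone. The 5 other EMC genes had a median ratio of 2.53, above each of the 3 level EMC loci. Those 3 were chosen for a ratio of at most 1.7, so this order follows in part from the choice. The 5 others were also weaker, with lowest signals of 149.1 to 1387.8. In the proteasome regulatory particle 4 of 6 others had a ratio of at most 1.7 (AT5G23540, RPN12a, AT1G75990 and AT1G04810). For 1 of 6, AT5G45620, the log2 difference between flower and stem was 0.47 ± 0.17 (SE; limma adjusted p = 0.0434), which missed the threshold with GapC scaling, trimmed mean scaling alone or no intensity trend, and without stem replicate 2 or 3, flower replicate 1, 2 or 4, or any leaf array.

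Taking in genes with a symbol of their own, the same limits gave 11 further level probe sets: FRO1 (1.33), RBP45B (1.34), SAMDC (1.35), MAB1 (1.43), APM1 (1.43), RPN12a (1.44), ATRBP45C (1.47), CEF (1.54), HEMB1 (1.59), OEP16-3 (1.63) and CUL4 (1.65). Of these, 4 are in the complexes above: FRO1 and OEP16-3 in complex I, MAB1 in pyruvate dehydrogenase and RPN12a in the proteasome. Of 31 loci in wide use as reference genes, 11 had a probe set of their own, and their ratios ran from 1.57 to 3.04 with a median of 2.12. Only AT4G34270 (278.7 to 436.9) and AT4G26410 (1093.4 to 1752.6) stayed within 1.7, at weaker signals, and the 1 reference gene above 1500 in every array, GAPC2, ran from 11576.3 to 25796.4.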

How the data were processed

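The authors' deposited intensity per probe set was made with Affymetrix Microarray Suite 5.0 at a target of 500, per the labels' protocols; the GapC factor that the labels state was not in the values. Members were chosen on these deposited intensities, and no step was applied before. The members, role groups and gene lists were chosen with earlier results of these data known. Roles and the loci of the 9 complexes were written from general knowledge after the members were known. Lists by words in gene names held 150 genes and 0 members, since the tables here carry no descriptions.

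For contrasts, values were quantile normalised over 11 arrays and taken as log2(value + 32). Probe sets with at least 100 in at least 3 arrays (17567) were fitted in limma 3.58.1 (R 4.3.3; lmFit, eBayes with trend), 1 fit for all organs, two-sided. A call needed a Benjamini-Hochberg adjusted p under 0.05 and an absolute log2 fold change of at least 1. The fit was tested on simulated data. "Apart" means that no array of one organ overlaps the other. The number of arrays limits the precision. Alternatives were other scalings, pseudocounts, filters, limits and each array left out; those on the complexes were chosen after seeing the data. All 38 members matched the RefSeq gene table (TAIR10.1). Named members follow ranks by evenness, signal, border and organ difference; other genes were named from the complex lists after their values were seen. Coordinates and sequences were not used here.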

Additional observations from a re-analysis of the deposited data

Results flagged for a closer look

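In each group of 4 arrays, the highest or lowest array was set against the rest by Dixon's criterion. Of 76 groups over the 38 loci, 5 (6.58%) had an array far from the other 3. The rule that chose the loci capped the spread of these same values, so this share cannot be set against a chance rate. Stem replicate 3 was high for AT1G67350, the complex I subunit, at 4008.9 against a next value of 2719.1. It was also high for AT5G49540 (EMC6), at 2951.3 against 2038.1. Flower replicate 1 was high for AT3G23600, the alpha/beta hydrolase, at 2701.3 against 2066.2. Flower replicate 2 was low for AT5G36230, at 2147.2 against 2602.4. Flower replicate 4 was high for AT5G32450, the RNA-binding protein, at 2237.3 against 1789.7.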

How the results depend on the processing

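The number of loci meeting the rule was 38 as deposited. It was 37 after quantile normalisation (29 shared with the 38), 26 with a common median (14 shared) and 8 with GapC scaling (3 shared). It was 16 with a ratio limit of 1.5, 83 with 2, 75 with a lowest signal of 1000 and 19 with 2000. On organ means it was 187. With only leaf and stem it was 85, with only leaf and flower 198 and with only stem and flower 87. Leaving out each array in turn gave 40 to 65, the latter without stem replicate 3.

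GapC scaling took the median log2 difference of all probe sets from -0.02 to 0.695 for flower against leaf, raised the calls from 3237 to 5678 and moved their split from 1610 higher and 1627 lower to 5083 and 595. For stem against leaf it was 1640 and 1637 against 3687 and 614, and for flower against stem 1731 and 1425 against 2229 and 1147. Genes of the word lists called for flower against leaf went from 23 to 40. Trimmed mean scaling alone took that median to 0.14, with 2046 higher and 1427 lower for flower against leaf and 2120 and 1192 for flower against stem. Of the 54 other genes of the complexes, 15 were called with GapC scaling, 2 with trimmed mean scaling, 2 without leaf replicate 1 and 1 under every other alternative. Complex I genes higher in flower than in leaf numbered 14 with GapC scaling, 6 (beside 1 lower) with trimmed mean scaling and 5 to 9 with an array left out; genes past the threshold at any fold in the complexes numbered 19 to 31 with an array left out. The causes were not tested.

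Replicate numbers are shared across organs. Deviations of same-numbered arrays correlated at -0.161 to 0.026 in pairs with leaf and at 0.0894 to 0.149 between stem and flower. Between stem and flower all 8 arrays correlated best with their own number. By their titles, same-numbered stem and flower arrays also share a growth site, although other labels of stem replicate 4 name a different one. The labels do not pair replicates, and the source of these correlations was not tested. With the replicate block 3181 probe sets were called for flower against leaf, 3279 for stem against leaf and 3174 for flower against stem, and 27 complex genes passed at any fold. Leaving out each array gave 2892 to 3253, 2829 to 3363 and 2965 to 3279 calls in these contrasts, and 21 to 24, 19 to 24 and 22 to 27 for the word lists. Promoter and protein features were not analysed here.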

Other observations

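Genes found by words in their names gave 134 tested genes, of which 17 had a lowest signal of at least 1500 and 0 met the ratio limit; 45 (33.6%) were called in any contrast. Of 9 photosynthesis genes, 7 were called lower in flower than in leaf (background 9.26%), or 6 with GapC scaling and 8 with trimmed mean scaling, and their median ratio of highest to lowest was 6.19. Of 11 cytoskeleton genes, 5 were called higher in stem than in leaf (background 9.34%), or 6 with GapC scaling. Of 27 genes of ubiquitin conjugation, 1 was called in any contrast (background 33.6%), but 10 with GapC scaling and 0 without stem replicate 1 or 2. GapC scaling raised the calls over all probe sets in each contrast too. The median ratio of the ubiquitin conjugation genes was 2.19.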
